A study of Drosophila melanogaster with 39 samples.

Results

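CP190 ChIP-seq was examined in Kc167 cells after knockdown of *eff*, with 3 eff knockdown libraries set against 3 control libraries, out of the 39 libraries of the series. Kc167 is a *Drosophila* line of embryonic origin with hemocyte (blood cell) character, here grown in CCM3 medium. The eff knockdown cells received *eff* dsRNA and the control cells *mcherry* dsRNA, which has no target in the fly genome, and all cells were kept with dsRNA for 4 days at 25 °C before formaldehyde fixation. The labels call the libraries biological replicates but do not say whether each came from its own culture, so p-values measure the spread between these libraries only. The peaks of the 6 lists were merged wherever they overlapped by at least 1 bp, which gave 9311 regions. A region was lost when all 3 control and no eff knockdown library had a peak there, gained when all 3 eff knockdown and no control library had one, and kept when all 6 did. The lists hold no measure of *eff* transcript or protein, so the knockdown itself could not be checked from them.

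CP190 is a zinc-finger protein with a BTB domain that joins DNA-binding insulator proteins such as Su(Hw), CTCF and BEAF-32 on chromatin, and it sits at many active promoters as well as at *gypsy*-type insulator sites. Effete, the product of *eff*, is an E2 ubiquitin-conjugating enzyme, which passes ubiquitin to substrates with the help of E3 ligases. Cul4, a cullin, holds together the parts of a group of such ligases. Whether Effete promotes the association of insulator proteins with chromatin is the question that the comparison addresses.

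The letters around some of the changed summits follow, so that the base composition and motifs behind the later values can be seen. They were read from the RefSeq release 6 assembly (dm6), forward strand, 201 bases centred on the strongest summit of each region, outside annotated untranslated regions, with a preference for windows that hold a motif. Capitals mark a match, on either strand, to M1BP (GGTCACAC), BEAF-32 (TATCGATA), Su(Hw) (TTGCATAC), a CTCF-like motif (AGNNGGCGC) or GAGA (GAGAGAGA). These matches occur in 6.61%, 7.89%, 9.33%, 5.38% and 1.42% of the 9311 windows, in that order. A match says only that these letters occur in the window. Regions carry the name of the gene with the nearest transcription start site (TSS), which may lie some kb away.

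The first set shows 3 regions at which CP190 was lowered after eff knockdown in both strength measures described below.
msi, lowered (chr3R:25594239-25594439): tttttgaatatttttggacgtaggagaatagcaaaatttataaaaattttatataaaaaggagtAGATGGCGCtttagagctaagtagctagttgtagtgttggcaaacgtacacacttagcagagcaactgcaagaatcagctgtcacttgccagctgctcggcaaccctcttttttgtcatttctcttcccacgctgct
CG16700, lowered (chrX:17091143-17091343): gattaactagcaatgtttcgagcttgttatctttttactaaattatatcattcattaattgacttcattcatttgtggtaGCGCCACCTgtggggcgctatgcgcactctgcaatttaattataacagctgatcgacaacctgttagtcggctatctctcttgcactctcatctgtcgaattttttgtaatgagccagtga
snoRNA:Psi28S-2566, lowered (chr3L:18894995-18895195): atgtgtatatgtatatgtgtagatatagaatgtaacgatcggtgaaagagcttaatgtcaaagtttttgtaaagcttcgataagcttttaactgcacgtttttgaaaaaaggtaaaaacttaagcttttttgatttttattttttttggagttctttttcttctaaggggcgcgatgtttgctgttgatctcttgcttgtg

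The second set shows 3 regions that were raised in both measures. The window near *CG13907* holds a CTCF-like match, as do those near *msi* and *CG16700* in the lowered set. Windows with a motif were preferred for printing. In full, the match lay in 1 of the 10 regions raised in both measures and in 3 of the 79 lowered (3.8%), against 5.87% of kept regions.
CG13907, raised (chr3L:883012-883212): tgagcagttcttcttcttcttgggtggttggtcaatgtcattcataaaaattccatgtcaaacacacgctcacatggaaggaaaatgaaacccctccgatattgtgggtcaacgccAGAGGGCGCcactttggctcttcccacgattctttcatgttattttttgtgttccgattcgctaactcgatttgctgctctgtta
CG45263, raised (chr3R:8470055-8470255): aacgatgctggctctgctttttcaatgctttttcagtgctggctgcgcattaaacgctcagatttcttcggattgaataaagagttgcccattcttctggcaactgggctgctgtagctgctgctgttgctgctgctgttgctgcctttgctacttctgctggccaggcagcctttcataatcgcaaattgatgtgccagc
CG11370, raised (chr3L:22713664-22713864): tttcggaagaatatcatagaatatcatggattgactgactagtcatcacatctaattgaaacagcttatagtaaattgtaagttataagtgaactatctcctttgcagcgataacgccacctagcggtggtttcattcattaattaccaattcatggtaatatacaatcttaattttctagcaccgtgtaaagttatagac

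The third set shows a large fall and a large rise in fold enrichment that were not accompanied by a call in summit reads. The *Clamp* window is poor in G+C at 31.3%, whereas the *IA-2* window holds 47.3% G+C.
Clamp, fold lower (chr2L:22169165-22169365): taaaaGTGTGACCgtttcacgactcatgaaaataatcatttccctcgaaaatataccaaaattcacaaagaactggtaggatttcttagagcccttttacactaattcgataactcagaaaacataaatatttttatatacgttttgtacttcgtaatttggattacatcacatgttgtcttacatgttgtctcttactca
IA-2, fold higher (chr2L:1047633-1047833): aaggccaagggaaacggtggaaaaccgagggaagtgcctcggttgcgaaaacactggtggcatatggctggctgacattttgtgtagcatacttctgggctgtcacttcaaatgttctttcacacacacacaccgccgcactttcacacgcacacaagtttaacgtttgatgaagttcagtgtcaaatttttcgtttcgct

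The fourth set shows 2 lost and 2 gained regions. The lost window in the pericentric *Myo81F* intron, nearest to *CR40182*, is a tandem repeat, so the origin of its reads is uncertain.
CR40182, lost (chr3R:2087431-2087631): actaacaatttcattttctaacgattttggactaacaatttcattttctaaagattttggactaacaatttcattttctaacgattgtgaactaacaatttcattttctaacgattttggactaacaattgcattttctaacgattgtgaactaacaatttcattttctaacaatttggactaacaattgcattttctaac
alpha-Man-Ia, lost (chrX:10313940-10314140): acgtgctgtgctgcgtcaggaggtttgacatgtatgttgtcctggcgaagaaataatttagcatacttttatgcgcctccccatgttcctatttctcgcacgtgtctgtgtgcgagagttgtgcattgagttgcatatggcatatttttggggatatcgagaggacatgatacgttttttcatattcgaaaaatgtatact
CG33772, gained (chr3L:22654087-22654287): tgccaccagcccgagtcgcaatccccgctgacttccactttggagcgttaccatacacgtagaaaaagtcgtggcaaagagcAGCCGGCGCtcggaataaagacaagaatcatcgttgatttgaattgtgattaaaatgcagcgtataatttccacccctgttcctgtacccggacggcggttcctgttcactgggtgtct
nau, gained (chr3R:23716145-23716345): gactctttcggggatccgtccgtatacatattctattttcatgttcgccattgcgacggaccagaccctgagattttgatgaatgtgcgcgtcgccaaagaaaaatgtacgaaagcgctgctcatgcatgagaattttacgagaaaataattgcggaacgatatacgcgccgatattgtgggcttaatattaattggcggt

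The eff knockdown lists held 8243, 7886 and 7622 peaks, against 9149, 7358 and 8894 in the control lists, and a small remainder of 2 to 13 peaks per list lay off the chromosome arms and was left out. Peak number on the arms averaged 7914 ± 311 in eff knockdown and 8457 ± 968 in control cells (SD, n = 3 each), a difference of -542 (two-sided exact permutation p = 0.4, adjusted p = 0.56 over 7 library summaries). Control replicate 2 stood apart from its group. It had the shortest list, and its median of 229 reads at the summits of kept regions was below the 276, 257 and 236 of the eff knockdown libraries and the 354 and 356 of the other controls. It called 93.8% of the 7308 regions that all 5 other libraries called, while the remaining libraries called 98.8% to 100% of theirs. The lowest local background of a list, which follows sequencing depth, was 22.4, 20.6 and 20.1 reads in eff knockdown and 27.2, 22.4 and 29.7 reads in control libraries.

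Most CP190 binding was present in both conditions. Of the 9311 regions, 6852 (73.6%) were kept, which is 96.4% of the 7111 regions called in all 3 control libraries. Lost regions numbered 75 (0.805% of all regions) and gained regions 14 (0.150%). A further 456 regions had a peak in all 3 eff knockdown and 2 control libraries, and in all 456 the missing library was control replicate 2. Without that library the lost count was 647 rather than 75 and the gained count 14. The controls then left, replicates 1 and 3, had more reads at kept summits (medians 354 and 356) than any eff knockdown library (236 to 276). Read number and knockdown therefore cannot be told apart in any count without control replicate 2, here or below. Without eff knockdown replicate 3 there were 28 gained regions.

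**Figure D1:**
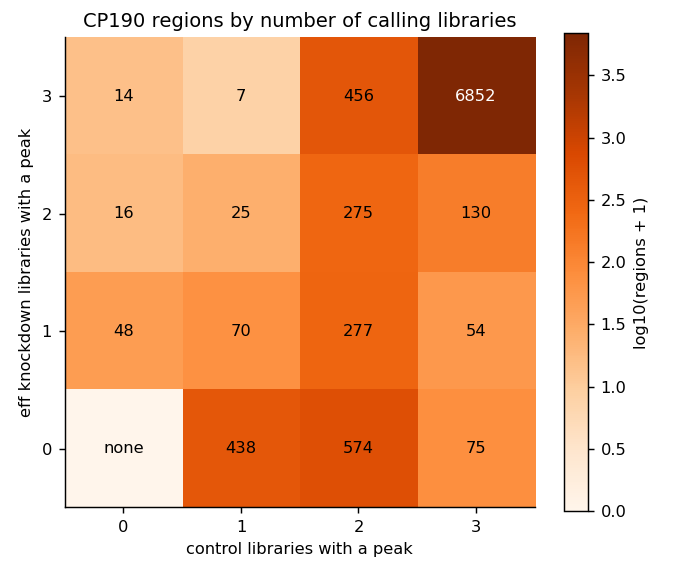
Number of CP190 regions by how many eff knockdown libraries (vertical axis, 0 to 3) and how many control libraries (horizontal axis, 0 to 3) had a peak; colour is log10 of the count plus 1. The 6852 kept regions fill the upper right cell, the 75 lost regions the lower right and the 14 gained regions the upper left.

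Lost regions were weak in the control cells. Fold enrichment is the ratio of reads at a summit to its local background, and it was expressed as a percentile of the peaks in the same list. The median lost region stood at the 16.5 percentile of the control lists, whereas kept regions had a median of 57.3 over all 6 lists. Lost regions were nearest to genes of several roles. *CkIIbeta*, the regulatory subunit of casein kinase 2, had a lost region in an exon on X (11798422 to 11798952) with no peak in eff knockdown libraries and with 204, 97 and 188 summit reads in control libraries. At *vtd*, which encodes the Rad21 subunit of cohesin (3L, 27136060 to 27136691, promoter), control libraries had 185, 99 and 153 reads and no eff knockdown library had a peak. Control replicate 2 was the lowest at both.

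Further lost regions of the highest rank lay at the promoters of *Rrp47* (X, 15944711 to 15945139), a cofactor of the RNA exosome, of *vir-1*, a gene induced by virus infection (2L, 12404300 to 12404910), and of *Cndp2* (2R, 5697561 to 5698035). No eff knockdown library had a peak at these, while control libraries had 165, 98 and 182 summit reads at *vir-1* and 180, 98 and 149 at *Cndp2*. The region with the highest rank, nearest to *CG14448*, lay in an exon within *SPoCk* (3L, 22785360 to 22785898), carried a Su(Hw) site (a reproducible Su(Hw) peak of control cells), and had 224, 110 and 225 control reads. *Proc-R*, the proctolin receptor gene, had a lost intronic region (X, 4709691 to 4710130) with 176, 87 and 175 control reads, and a lost promoter region nearest to *Pld*, phospholipase D (2R, 6240155 to 6240696), had 238, 89 and 193. In all of these, control replicate 2, which also had fewer reads at kept regions, held fewer reads than the other controls. Divided by each library's median at kept regions, its reads were the lowest of the controls at 34 of the 75 lost regions. The repeat region nearest to *CR40182* had 181, 195 and 198 reads.

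*alpha-Man-Ia*, a Golgi mannosidase of N-glycan trimming, had changes at 2 separate places. Its intronic region on X (10313843 to 10314277), which carries a Su(Hw) site, was lost, with 165, 114 and 196 reads in control libraries. Its promoter region (10290610 to 10291169) was kept, with 126, 111 and 119 summit reads in eff knockdown against 259, 155 and 267 in control libraries. Groups did not overlap there.

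Gained regions were also weak, at a median percentile of 12 in the eff knockdown lists. Of the 14, 4 overlapped a promoter (28.6%), 4 an exon, 4 an intron and 2 neither, whereas 65.8% of kept regions overlapped a promoter, defined as the TSS and 1500 bp upstream. The difference in shares was not tested. The strongest lay in an exon of *nau*, the fly member of the MyoD family (3R, 23715989 to 23716449), with 169, 140 and 126 reads in eff knockdown and no control peak, and in the intergenic region nearest to *B9d1*, a gene of the ciliary transition zone (3R, 15478837 to 15479237), with 169, 135 and 126 reads. An exon of *capu*, a formin that builds actin filaments (2L, 3893381 to 3893717), had 120, 92 and 95 reads, and one of *Argk1*, arginine kinase (3L, 9048818 to 9049211), had 104, 92 and 86. Gained regions also lay nearest to *Kank*, *Pex7*, *CG33772*, *lov*, *lncRNA:CR45537* and *lncRNA:CR44689*, with 75 to 142 reads, and the 4 weakest, near *CR33317*, *sm*, *CR40182* and *CG31516*, had 82 to 136. The median G+C content of gained regions was 49%, against 36.3% at lost and 38.8% at kept regions. Peaks are called against the local background, which at kept regions differed between the groups with G+C, as given later. Its part in the lost and gained calls was not tested.

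Strength at kept regions was first compared by fold percentile. With limma and Benjamini-Hochberg adjustment, 662 kept regions (9.66%) were raised after eff knockdown and 985 (14.4%) were lowered at an adjusted p under 0.05. In 1232 regions (18.0%) all eff knockdown values stood above all control values, and in 1561 (22.8%) all stood below. The median change was -2.41 percentile points over lists of unequal length. Ranking among the kept regions alone moved that median to -0.29 and gave 1282 raised and 1203 lowered regions, so the balance of direction rests on the scaling. Without control replicate 2 there were 730 raised and 2095 lowered regions. In fold percentile that library correlated with the eff knockdown libraries at a Spearman rho of 0.87 to 0.90, and controls 1 and 3 at 0.80 to 0.86. Leaving out any other library gave 273 to 663 raised and 377 to 962 lowered regions, with the fewest raised without eff knockdown replicate 1 and the fewest lowered without control replicate 3.

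The 10 largest rises in fold percentile lay at summits with 44.3% to 57.7% G+C and the 10 largest falls at 27.4% to 38.8%. *IA-2*, a phosphatase-like protein of secretory vesicles (2L, 1047176 to 1048351), stood at 84.5, 91.3 and 81.6 in eff knockdown against 32.5, 43.9 and 37.4 in control libraries (change 47.88 ± 5.10 points, SE, limma adjusted p = 0.000833). Its summit reads were 492, 497 and 470 against 520, 449 and 546, which overlapped, while its local background was 34.5, 30.0 and 32.3 reads against 91.3, 74.8 and 94.8. *CG3847* (X, 6346663 to 6347490) rose by 46.32 points with the same pattern, with a background of 28.3, 26.2 and 24.4 reads in eff knockdown against 68.7, 65.6 and 78.6 in control libraries. *Ltn1* and *Fsn*, which encode an E3 ubiquitin ligase and an F-box component of another, rose by 35.89 and 36.86 points, and *CCKLR-17D3*, a neuropeptide receptor gene, by 36.79. An exon region near *lncRNA:CR44360* rose by 35.35 points. None of these 6 passed in summit reads, where their adjusted p ran from 0.215 to 0.962.

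Among the largest falls, *Clamp*, a zinc-finger protein that binds GA repeats (2L, 22168504 to 22170570), stood at 33.3, 21.9 and 36.5 in eff knockdown and at 86.3, 70.9 and 79.7 in control libraries (change -48.42 ± 6.03 points, limma adjusted p = 0.000833). Its summit reads, 267, 240 and 227 against 369, 222 and 336, overlapped, and its background was 43.4, 46.6 and 35.1 reads against 27.5, 22.8 and 29.7. Those control values lay at or close to the lowest background of their lists, 27.2, 22.4 and 29.7 reads. *Alg11*, a mannosyltransferase of N-glycan assembly, and *Ars2*, an RNA-processing factor, had changes of -47.15 and -46.65 points, again with a higher local background in each eff knockdown library than in any control library. The control backgrounds at both also lay at or close to the lowest of their lists. *Drep1*, a relative of the inhibitor of caspase-activated DNase, had the largest fall (-54.56 ± 6.07 points), and there the reads changed too, as given later. The others of the 10 largest falls were at *CG5199*, *CG2201*, *mthl3*, *shakB*, an innexin gene, the *alpha-Man-Ia* promoter and *CG16700*, with changes of -43.73 to -53.15 points.

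Fold enrichment has the local background as its divisor, so its parts were examined. Solving the fold and p of each peak under the Poisson model of MACS2 returned the reads at the summit, whole in every peak to within 0.00174 of a read, and the local background. Across the 6852 kept regions, local background correlated at a Spearman rho of 0.76 to 0.92 within eff knockdown and 0.89 to 0.96 within control, but at 0.50 to 0.66 between the groups. Summit reads correlated at 0.97 to 0.98 between groups. The change in fold percentile followed the change in log2 background at -0.80 and the change in log2 summit reads at 0.37, and since fold is a ratio of these parts, some relation to each is built in. Of the 662 raised regions 661 had a lower mean background in eff knockdown, and of the 985 lowered regions 973 had a higher one. At 2612 kept regions with a Su(Hw) peak in all 6 Su(Hw) libraries, the change of background under CP190 peaks correlated at 0.95 with that under Su(Hw) peaks. The labels name no separate input libraries for each antibody, so both backgrounds may come from the same inputs and this correlation may be built in. These correlations describe regions that share libraries and are given without a p. Whether the input libraries, from which MACS2 takes background, account for the changes in fold was not tested.

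**Figure D2:**
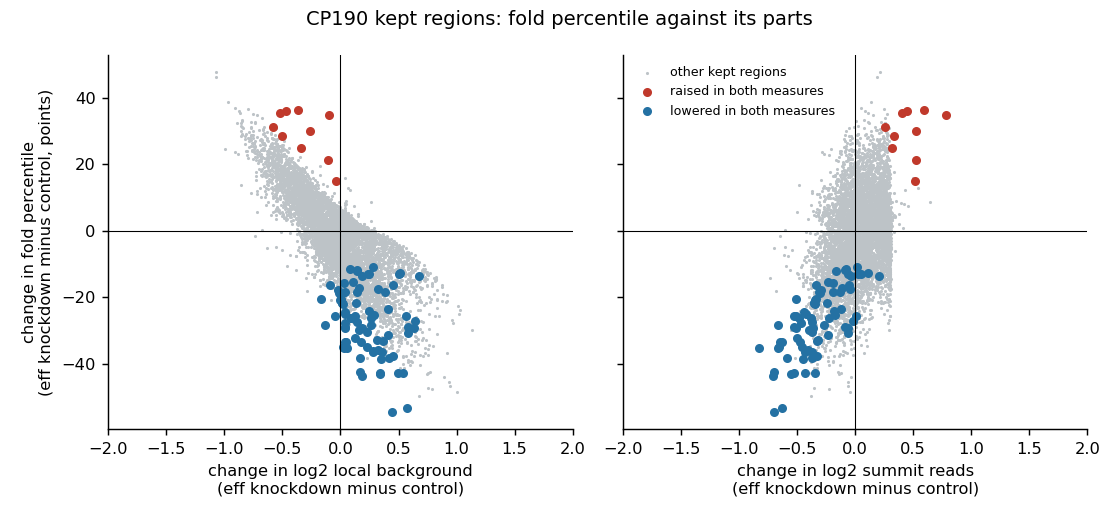
Change in fold percentile (eff knockdown minus control, vertical axis, in points) at the 6852 kept regions, against the change in log2 local background (left) and in log2 summit reads (right). Each point is a region; 10 regions raised and 79 lowered in both measures are coloured. The cloud falls steeply with background, at a Spearman rho of -0.80, and follows summit reads less, at 0.37.

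Background changed with base composition. In the quintile of kept regions that was richest in G+C, 45.3% to 61.7% within 100 bp of the summit, the median change in log2 background was -0.27 and the median change in fold percentile 5.68 points, with 329 regions raised and 43 lowered. In the poorest quintile, 13.4% to 32.8%, the background changed by 0.04 and the fold percentile by -4.35 points, with 43 raised and 233 lowered. With each library centred on its own median, the log2 background of the richest quintile was -0.12, -0.19 and -0.08 in eff knockdown against 0.19, 0.23 and 0.20 in control libraries, lower in every eff knockdown library. In the poorest quintile it lay between -0.06 and 0.04 in eff knockdown and between -0.16 and -0.14 in control libraries, and in the next quintile it was 0.04, 0.07 and 0.01 against -0.13, -0.12 and -0.11, higher in every eff knockdown library in both. The median change in summit read percentile was -0.45 and 0.66 points in the richest and the poorest quintile. Genes named by fold alone therefore stand beside a difference in background, and its part in each was not tested.

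**Figure D3:**
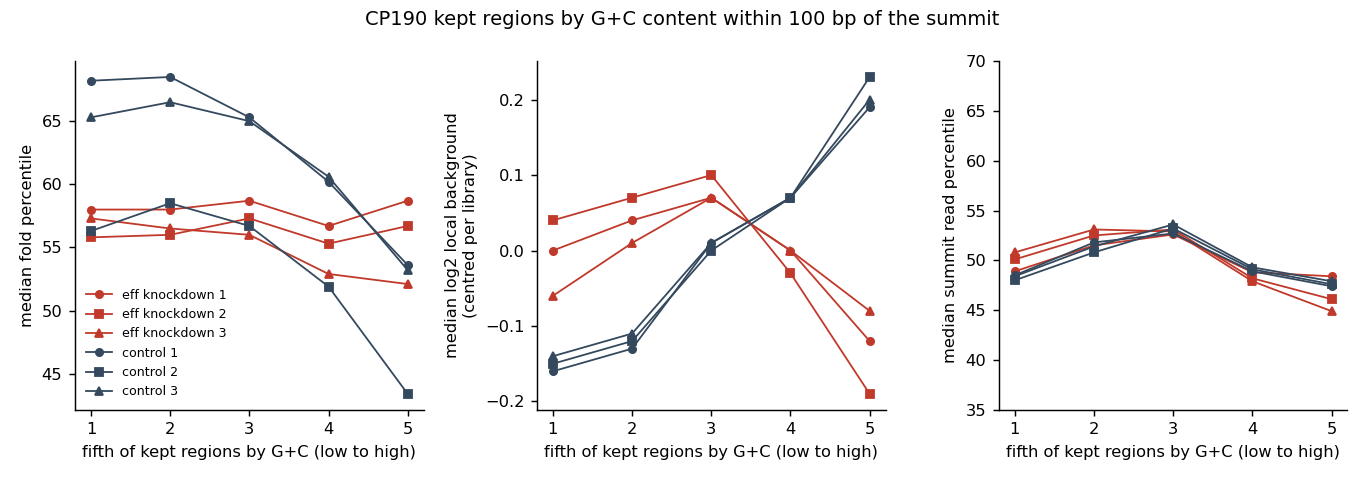
Medians of kept regions in quintiles of G+C content, low to high, for each of 3 eff knockdown (red) and 3 control (dark) libraries: fold percentile (left), log2 local background centred in each library (middle) and summit read percentile (right). Background separates the groups in the richest quintile, at -0.19 to -0.08 in eff knockdown and 0.19 to 0.23 in control libraries, and in the opposite direction in the poorest, at -0.06 to 0.04 and -0.16 to -0.14, while summit read percentiles lie close together.

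A second measure without the background was therefore added after the values were seen: the percentile of summit reads among the 6852 kept regions of each library. By limma, 71 regions (1.04%) were raised and 159 (2.32%) lowered after eff knockdown. Without control replicate 2 there were 606 and 431, and without any other library 21 to 33 and 36 to 68, the fewest without control replicate 3. The groups did not overlap in 678 regions with higher values in eff knockdown (9.89%) and in 881 with lower values (12.9%). In both measures 10 regions (0.146%) were raised and 79 (1.15%) lowered, and 6 regions were raised in fold while lowered in summit reads. Of the regions called by fold percentile, 646 of the raised and 906 of the lowered were not called in summit reads. The 79 and 10 regions are the ones for which the lists show a change in both the reads and the ratio. Without control replicate 2 the counts were 227 lowered and 93 raised, among them 78 of the 79 and 9 of the 10. Leaving out any other library gave 19 to 35 lowered, with the fewest without control replicate 3, and 5 to 11 raised, with 5 without eff knockdown replicate 1 or 2. With replicate number as a block, 24 were raised.

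*Drep1* (2R, 12044357 to 12045606, promoter) showed the largest fall. It had 181, 168 and 145 summit reads in eff knockdown against 383, 223 and 382 in control libraries, or percentiles of 21.2, 22.7 and 19.5 against 57.8, 48.3 and 56.0 (change -32.91 ± 3.20 points, limma adjusted p = 0.00095). The background was 35.3, 34.5 and 32.8 reads against 33.9, 27.1 and 36.3, which overlapped as reads not scaled for depth. The lowest background of these lists was 22.4, 20.6 and 20.1 reads against 27.2, 22.4 and 29.7. Relative to that floor, the *Drep1* background was higher in every eff knockdown than in any control library. Its part in the fall was not tested. The *alpha-Man-Ia* promoter fell by 18.20 points (adjusted p = 0.003). At *msi*, the RNA-binding protein Musashi (3R, 25594028 to 25594585), summit read percentiles were 17.7, 21.9 and 19.9 in eff knockdown against 38.3, 42.7 and 44.4 in control libraries, and the change was -21.97 ± 2.88 points (adjusted p = 0.003), at the window with a CTCF-like match printed above.

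The exon region nearest to *snoRNA:Psi28S-2566*, within the *CG3902* gene (3L, 18894772 to 18895465), fell to 158, 138 and 118 reads in eff knockdown, against 317, 186 and 324 in control libraries (-27.85 points, adjusted p = 0.00095). *CG32536* (X, 19278134 to 19278860) had 152, 122 and 124 reads against 310, 186 and 276, and *CG16700* (X, 17090988 to 17091506) had 109, 122 and 117 against 279, 164 and 254. *Alp12*, an alkaline phosphatase gene (2L, 19425029 to 19426306), fell by 22.62 points. At each of these, *Drep1*, *msi* and *alpha-Man-Ia* included, no eff knockdown percentile reached any control percentile, and the calls in both measures held without each of the 6 libraries in turn. The others of the 15 largest falls, *naz*, *lncRNA:CR45556*, *CG17717*, *CG31949*, *Lrr47*, *veil*, *Cipc*, *CG11883* and *nkt*, had changes of -20.44 to -22.94 points, and each lost its call in at least 1 measure when a library was left out.

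*LanB1*, a laminin subunit of the basement membrane that hemocytes secrete, was noticed after its values were seen. Its promoter region 51 bp from the TSS (2L, 7813979 to 7814606) was lowered in both measures, with 136, 126 and 109 summit reads in eff knockdown and 255, 153 and 227 in control libraries, and a weaker region beside it (7813258 to 7813830) was lost, with 137, 92 and 133 reads in control libraries. The call of the kept region in summit reads was lost without control replicate 1 or any eff knockdown library.

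Regions raised in both measures were fewer and lay near genes of several roles. Within *CG45263* (3R, 8469794 to 8470437, intron) reads were 269, 229 and 210 in eff knockdown and 185, 141 and 251 in control libraries, which overlapped, while their percentiles, 48.4, 43.2 and 43.4 against 3.5, 17.0 and 20.5, did not (change 31.29 ± 4.15 points, limma adjusted p = 0.00302). Its background was 30.1, 29.4 and 26.8 reads against 57.4, 34.8 and 53.5. The intronic region of *Fili*, a leucine-rich repeat protein (2R, 21888621 to 21889224), had 216, 201 and 146 reads against 157, 89 and 154, or percentiles of 33.0, 34.5 and 19.9 against 0.5, 0.5 and 0.6, and rose by 28.62 points. *CG11370* (3L, 22713402 to 22714085) rose by 28.87 points and *CG13907* (3L, 882464 to 883366), at a Su(Hw) site, by 22.93.

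Promoter regions nearest to *Irk1*, a potassium channel gene (3R, 23167627 to 23168596), to *Pu*, GTP cyclohydrolase (2R, 21178774 to 21179317), to *SCAP*, the sensor of the sterol pathway in mammals (2R, 6037263 to 6038369), and to *for*, a cGMP-dependent kinase (2L, 3631858 to 3632393), rose by 24.43, 22.99, 17.35 and 17.14 points. *CG15098* and *tRNA:Leu-CAG-1-2* rose by 19.94 and 12.35. The near-identical copies of that tRNA make the place of its reads uncertain. All 10 regions had a lower mean background in eff knockdown (median log2 change -0.36), and 72 of the 79 regions lowered in both measures had a higher one (median 0.18), so background moved with both sets, and its part in them was not tested. *CG45263*, *Fili* and *CG13907* kept both calls without each library in turn, and the other 7 lost at least 1.

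**Figure D4:**
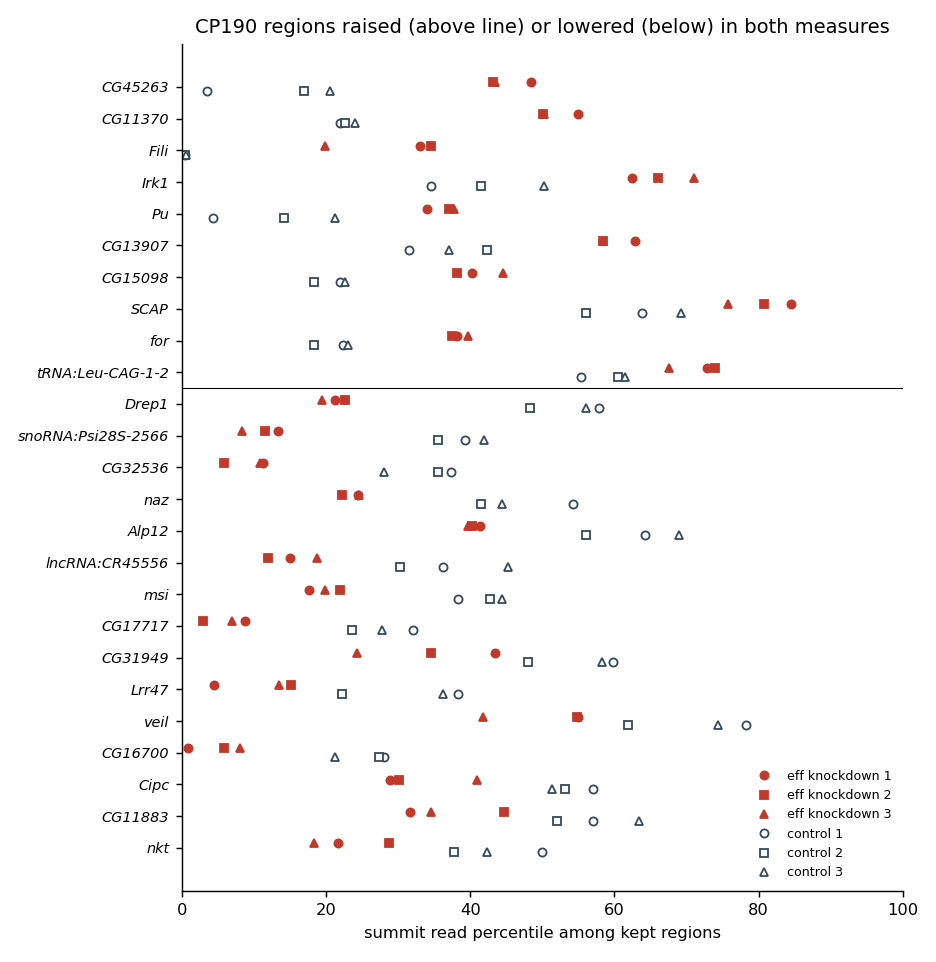
Summit read percentile among the 6852 kept regions (horizontal axis) in each eff knockdown (red, filled) and control (dark, open) library, for the 10 regions raised in both measures (above the line) and the 15 largest falls among the 79 lowered (below). At every region the 3 eff knockdown points lie apart from the 3 control points, which the choice of regions partly ensures.

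The 6 regions with opposite calls had a lower local background in every eff knockdown than in any control library. *CG8500* (3R, 9784096 to 9784907) rose by 38.76 points in fold while its summit read percentile was 84.0, 85.2 and 84.1 in eff knockdown against 91.1, 87.7 and 90.1 in control libraries, with a background of 27.5, 27.4 and 25.1 reads against 78.1, 53.4 and 71.7. *Hacd1*, *CG32812*, *mir-317*, *lncRNA:CR45717* and *lncRNA:CR46265* changed by 14.30 to 23.14 points in fold and by -14.06 to -6.01 points in summit reads. At *CG8500*, *lncRNA:CR45717* and *CG32812* the direction in reads turned when log2 reads replaced the percentile.

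The place of the regions called in both measures or in summit reads was set beside that of all kept regions. Of the 79 lowered in both, 37 overlapped a promoter (46.8%), 22 an exon (27.8%), 11 an intron (13.9%) and 9 neither, against 65.8%, 10.6%, 13.9% and 9.75% of kept regions. A Su(Hw) site reproducible in control cells lay at 32 (40.5%) and a Cul4 site at 28 (35.4%), against 39.4% and 34.7%. Among the 159 regions lowered in summit reads, 70 had a Su(Hw) site (44%), 53 a Cul4 site (33.3%) and none an M1BP match, which 7.41% of kept regions held. Of the 71 raised in summit reads, 15 had a Su(Hw) site (21.1%) and 6 a Cul4 site (8.45%), and 50 (70.4%) had neither, against 28.5% of kept regions. These shares describe the called regions and were not tested. BEAF-32 matches lay in 4 of the 159 lowered in summit reads (2.52%), against 7.9% of kept regions, also without a test.

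Classes of kept regions were compared by rank, but 3 against 3 libraries allow no exact p under 0.1. No class could therefore pass an adjusted p under 0.05, and the values below are descriptions. The median summit read percentile of 2701 regions at Su(Hw) sites was 54.1, 53.4 and 52.6 in eff knockdown against 53.5, 54.2 and 54.5 in control libraries (difference -0.67 points, exact permutation p = 0.2, adjusted p = 0.771 over 18 classes). At 2376 Cul4 sites the difference was 0.20 and at 4507 promoters 0.18 points. The groups did not overlap for regions with a CTCF-like match (402 regions, 76.7, 77.4 and 77.2 against 73.6, 76.7 and 74.0, where the unrounded medians of eff knockdown replicate 1 and control replicate 2 were close) and for regions with a GAGA match (69 regions, 39.6, 43.5 and 41.8 against 43.9, 46.2 and 45.2). Both had an exact permutation p of 0.1, the smallest that 3 against 3 libraries allow, and an adjusted p of 0.771. In fold percentile the GAGA class was also lower, 50.3, 50.5 and 46.5 against 58.0, 53.4 and 56.7, and the CTCF-like class differed by -0.26 points.

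Genes were then grouped by function, counting those with a kept region within 1 kb of a TSS. Of all 7201 such genes, 838 (11.6%) had a region raised in fold and 900 (12.5%) a lowered one, and 58 (0.805%) and 123 (1.71%) had one raised or lowered in summit reads. At an unadjusted p under 0.05 by limma, 713 of them had a region higher and 630 a region lower in summit reads. Of 20 insulator genes with a kept region, *CTCF*, *pita* and *su(Hw)* had a region raised in fold percentile and *BEAF-32* and *Clamp* a lowered one, and by limma no gene of the list had one called in summit reads, where 0 were higher and 2 lower at an unadjusted p under 0.05. At *su(Hw)* (3R, 14307614 to 14309222) the fold percentile was 80.7, 91.9 and 78.0 in eff knockdown against 66.6, 56.0 and 59.2 in control libraries, with 526, 534 and 517 summit reads against 538, 485 and 569. At *CTCF* (3L, 7356158 to 7357085) the percentile was 94.7, 90.7 and 93.6 against 83.2, 80.7 and 81.4. The call at *pita* was lost without control replicate 2 or 3 or eff knockdown replicate 1 or 2, and the *BEAF-32* region is also the promoter of *Spred*.

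Of 32 ubiquitin pathway genes, 4 were raised in fold (12.5%) and 2 lowered (6.25%), beside 11.6% and 12.5% of all genes. The raised were *Cul1* and *SkpA* of the SCF ligase, *Uba3* of the NEDD8 pathway and *l(2)dtl*, a Cul4 substrate receptor. The lowered were *Cul2* and the E2 enzyme gene *ben*. No gene of the list was called in summit reads by limma, where 3 were higher and 1 lower at an unadjusted p under 0.05, beside 713 and 630 of all 7201 genes. The *Cul2*, *Uba3* and *l(2)dtl* regions are shared with the promoters of *lncRNA:CR43144*, *tum* and *sigmar*, and the calls at *Cul1*, *Uba3* and *l(2)dtl* were each lost without each of 4 of the 6 libraries, that at *ben* without control replicate 3. A cullin gene, *Cul6*, had a lost promoter region (3L, 13011522 to 13011963), with 172, 84 and 121 reads in control libraries. *eff* itself kept its promoter region (3R, 14740566 to 14741899), with 406, 386 and 357 summit reads in eff knockdown against 453, 338 and 474 in control libraries and no call in fold (14.37 ± 6.01 points, limma adjusted p = 0.102) or in reads (adjusted p = 0.923). *Cp190* kept a weak promoter region with 138, 126 and 122 reads against 218, 140 and 210, not called in either measure. The *Cul4* promoter region was called in all 3 eff knockdown libraries and in controls 1 and 3.

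Of 8 telomere genes *HipHop*, which caps chromosome ends, was lowered in fold (change -31.49 points) at a region shared with *CG14073*, and none was called in summit reads, also at an unadjusted p under 0.05. Ribosomal and translation genes had the highest shares of raised fold among the 17 lists, where all genes had 11.6% raised and 12.5% lowered. Of the 662 kept regions raised in fold, 661 had a lower mean background in eff knockdown, and its part in these shares was not tested. Of 73 cytoplasmic ribosomal protein genes 18 (24.7%) were raised and 5 (6.85%) lowered, among the raised *RpL7*, *RpS3* and *RpL19*, and of 30 translation initiation genes 9 (30%) were raised and 1 lowered, among the raised *eIF4A* and *eIF3a*. Neither list had a gene called in summit reads, and their median changes there were 1.80 and 0.19 points. At an unadjusted p under 0.05 by limma, 14 of the 73 ribosomal protein genes were higher and 0 lower in summit reads. Of the 30 translation initiation genes 2 were higher and 2 lower, and of all 7201 genes 713 and 630. *RpL15* had a lost promoter region, with 148, 84 and 117 reads in control libraries. Of 28 cell cycle genes 2 were raised and 4 lowered in fold (7.14% and 14.3%). In summit reads 1 of them, *aurA*, the Aurora A kinase gene, was raised (3.57%, beside 0.805% of all genes). That call was lost without each of 5 of the 6 libraries. Of 22 lamina and nuclear pore genes 4 were raised (18.2%) and 1 lowered (4.55%) in fold, and of 20 Polycomb and trithorax genes 2 and 2 (10% each). These shares stand beside 11.6% raised and 12.5% lowered of all genes and were not tested.

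Other libraries of the series, which had no part in choosing the regions, were read at the same places. Cul4 peaks, of the antibody used in both conditions, lay at 16%, 2.67% and 0% of lost regions in eff knockdown, against 45.3%, 44% and 36% in control libraries (difference -35.6 points, two-sided exact permutation p = 0.1, the smallest possible, adjusted p = 0.2 over 4 comparisons). At kept regions the shares were 31.3%, 4.14% and 5.01% against 39%, 44% and 39%, so fewer Cul4 calls after eff knockdown were found there as well, and eff knockdown replicate 1 had far more Cul4 peaks than the others. No gained region had a Cul4 peak in any library, 0 of 14, which allows a share of up to 21.4%. Su(Hw) peaks lay at 6.67%, 6.67% and 5.33% of lost regions in eff knockdown against 10.7% in each control library (p = 0.1 by the same exact test), and at 38.3%, 39.6% and 39% against 40.1%, 40% and 39.5% of kept regions.

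At the 27 regions lowered in both CP190 measures that had a Su(Hw) peak in all 6 Su(Hw) libraries, the median percentile of Su(Hw) summit reads was 33.5, 36.7 and 39.1 in eff knockdown and 50, 44.9 and 48.0 in control libraries (difference -11.19 points, exact permutation p = 0.1). The groups did not overlap. At 13 regions raised in CP190 summit reads it was 14.8, 12.9 and 13.1 against 11.4, 11.1 and 10.6. Whether the Su(Hw) and CP190 libraries came from the same chromatin is not stated.

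CP190 libraries of *cul4* knockdown cells, which share the control libraries, called 33.3%, 10.7% and 4% of lost and 57.1%, 14.3% and 28.6% of gained regions, against 99.3%, 95.3% and 86.7% of kept regions. For the next values, summit reads were ranked among the 5911 kept regions called in all 9 CP190 libraries, not among all 6852. At 55 of these regions, lowered in both measures, the median summit read percentile was 39.9, 38.2 and 40.7 in eff knockdown, 41.7, 41 and 42.3 in cul4 knockdown and 56.3, 55.5 and 59.2 in control libraries. At 9 regions raised in both it was 47.7, 42.2 and 42.3 in eff knockdown, 16.3, 11.7 and 32.2 in cul4 knockdown and 13.0, 12.9 and 14.4 in control libraries. Because the regions were chosen against these controls, likeness between the knockdowns was not tested.

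**Figure D5:**
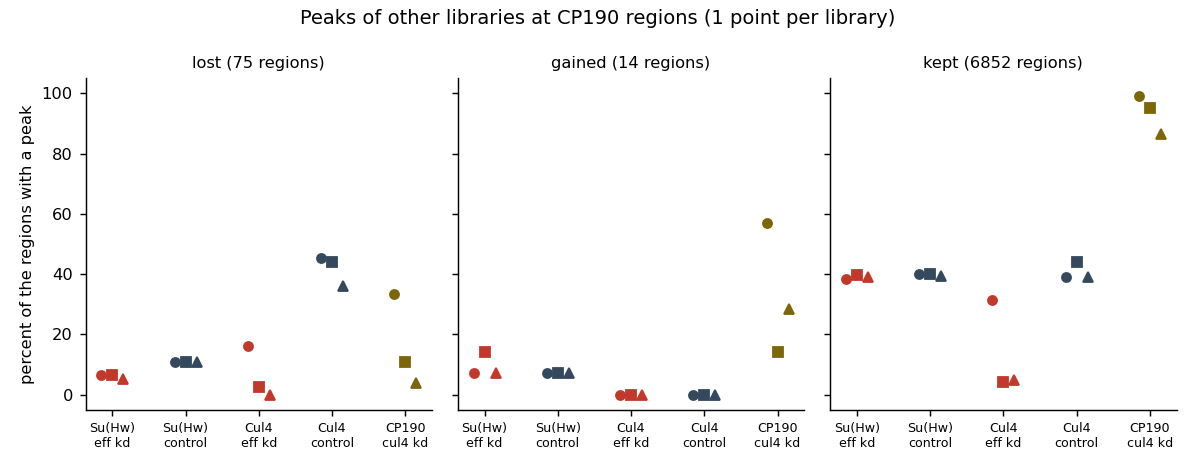
Percent of lost, gained and kept CP190 regions (3 panels) at which each library of Su(Hw) and Cul4, in eff knockdown (red) and control (dark) cells, and of CP190 in cul4 knockdown cells (brown) had a peak; 1 point per library. Cul4 peaks lay at 0% to 16% of lost regions in eff knockdown and at 36% to 45.3% in control libraries.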

How the data were processed

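CP190 peak lists of 3 eff knockdown and 3 control libraries were compared, with Su(Hw), Cul4 and cul4 knockdown CP190 lists read at the same regions. MACS2 2.2.7.1 (q 1e-09) made the lists from 50 bp reads, for which the study's methods name cutadapt 3.4, Bowtie2 2.4.2, SAMtools 1.12 (mapping quality 20), Picard MarkDuplicates 2.25.2 and FlyBase 6.35. The deposited columns hold fold enrichment (a ratio of summit reads to local background), −log10 p, −log10 q and a score equal to 10 times −log10 q without decimals. Reads were not used here, so the study's read-based comparison was not run. The depth of each library is unknown beyond the background floor and summit reads.

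Genes came from Ensembl 115 on the same assembly. Fold was ranked within each list. Summit reads and background were solved from fold and p (Python 3.11.15, scipy 1.17.1) and both percentiles were tested with limma 3.58.1 in R 4.3.3 (empirical Bayes with a trend, Benjamini-Hochberg adjusted p under 0.05). Library and class medians were compared by two-sided exact permutation. The scripts were tested on simulated data. With 200 of 6852 regions changed by 25 points, limma called 108 of them (54%) in fold percentile and 191 (95.5%) in summit read percentile. False calls numbered 4 and 11. Named are the 10 strongest lost and gained regions, the 10 largest rises and falls in fold among called regions without overlap, changed genes of the insulator, ubiquitin and telomere lists, and *eff*, *Cul4* and *Cp190*. Regions called in both measures, *LanB1*, *aurA* and the other lists' genes were chosen after their values were seen, as was the summit read measure with its alternatives. The members and lists were chosen with earlier results of these data known. Shares of 0 carry counting error only, as 3 counts of the total.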

Additional observations from a re-analysis of the deposited data

How the results depend on the processing

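The lists give no reads away from peaks, so reads at a region without a peak are unknown, and 3 libraries a group allow no exact p under 0.1. Fold depends on background and percentiles on list length, and control replicate 2 decides several counts. The cause of the changes below was not tested.

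Counts in the text moved as follows. Lost regions were 703 with a difference of at least 2 libraries, and 76 to 647 with a library left out. Gained regions were 37 with at least 2 libraries, 52 in lists of equal length, and 14 to 28 with a library left out. Regions raised in fold percentile were 1282 by rank among kept regions, 287 by −log10 q and 1268 in lists of equal length, and 273 to 730 with a library left out. Lowered ones were 554 by −log10 q, and 377 to 2095 with a library left out. Summit reads were raised at 352 regions on the log2 scale and 130 after subtracting the background, and lowered at 499 on the log2 scale. With a library left out they were raised at 21 to 606 and lowered at 36 to 431. Regions raised in both measures were 16 in lists of equal length and 5 to 93 with a library left out, and those lowered in both 19 to 227. All alternatives of the summit read and both-measures counts were added after the data were seen.

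The labels do not say whether replicate numbers pair the samples, and these few correlations cannot settle it. Deviations of same-numbered libraries correlated at 0.24, 0.01 and -0.15, and only replicate 1 matched best with its own number. With the replicate block 665 regions were raised and 1046 lowered in fold, 168 raised and 220 lowered in summit reads, and 24 raised in both.

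Differences of class medians in fold percentile turned sign in some alternatives. Their main values were -2.32 points at Su(Hw) sites, -0.84 at Cul4 sites, -1.57 at promoters and -3.64 at regions with no site. On log2 fold they were 0.04 at Su(Hw) sites, 0.04 at Cul4 sites and 0.02 at promoters. By rank among kept regions they were 2.02 and 1.34 points at Cul4 sites and promoters, and in lists of equal length 1.75 and 1.22. In summit reads they were 0.20, 0.18 and 0.36 at Cul4 sites, promoters and regions with no site. With a library left out the fold percentile differences ran from -2.69 to 0.52 at Cul4 sites and from -4.91 to 0.39 at promoters. Among library summaries the main difference was 10 bp in median width and -31.5 bp in distance to a TSS. It was 0.642 points in peaks at promoters and 0.538 points in peaks at Cul4 sites. In lists of equal length the difference in median width was -10.7 bp (-22.0 to 30.5 with a library left out) and in distance to a TSS 12 bp. There it was -0.44 points in peaks at promoters and -0.64 points in peaks at Cul4 sites (-0.172 to 1.74 with a library left out). The share of other libraries' regions was not run without single libraries. The change in summit reads was positive at *CG8500* (0.14 on log2, 1.67 after subtracting the background), *lncRNA:CR45717* (0.14 and 0.65) and *CG32812* (0.08 on log2).

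At the 57 named regions tested in fold percentile, 374 of 393 values kept their call with all libraries and 19 lost it, and 50 of 342 lost it with a library left out. At 34 regions in summit reads, 187 of 199 kept it, 7 lost it and 5 turned, and 68 of 204 lost it with a library left out.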

Other observations

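Other gene groups were counted by the same rule, beside 11.6% of all genes raised and 12.5% lowered in fold percentile. Of 8 hemocyte genes with a kept region, *LanB2*, the partner laminin subunit of *LanB1*, was raised in fold percentile and *LanB1* and the growth factor receptor gene *Pvr* were lowered (12.5% and 25%). Among 17 immune genes, *dome* and *upd2* of the JAK/STAT pathway were raised and *Socs36E*, *cact* and *PGRP-LE* lowered in fold (11.8% and 17.6%). Of 11 cohesin genes *eco* and *pds5* were raised (18.2%) and 0 lowered, while the *vtd* region was lost. *ftz-f1* was raised and *EcR*, the ecdysone receptor gene, lowered among 6 ecdysone genes (16.7% each). Of 53 mitochondrial ribosomal genes 5 were raised and 4 lowered (9.43% and 7.55%), and of 31 proteasome genes 2 and 3 (6.45% and 9.68%). These lists hold few genes, and their shares were not tested. None of the 7 heat shock genes was called in fold or in summit reads by limma, where 2 were higher and 0 lower in summit reads at an unadjusted p under 0.05. Of all 7201 genes, 713 were higher and 630 lower by that rule. Local background moves with fold in these libraries, and its part in these calls was not tested. *LanB1* alone among the genes of this paragraph was called in summit reads.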
